A study of Coprinopsis cinerea with 6 samples.

Results

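In the gill of the ink cap mushroom Coprinopsis cinerea, 98 of 13615 gene models were partly reduced in an SRR1 mutant. SRR1 is a transcription factor, and the title of the series ties it to spore morphogenesis. The mean level of these transcripts in the mutant gill was 11.3% to 32.8% of the wild type mean, a range largely set by the choice. They were chosen by their own levels. The level of each gene was its count of read pairs divided by the library total, given per 1000000 pairs (CPM), with no other scaling. A member had a mean of at least 10 CPM over the 3 wild type libraries, a ratio of wild type to mutant mean of at least 3 and under 8 after 0.5 CPM was added to both, and its lowest wild type library above its highest mutant library. The contrast between the groups therefore chose the members, and it is given as a description, with no test. With the same other criteria, 101 genes had a ratio of at least 8, and the remaining 7952 of the 8151 genes with at least 10 CPM in the wild type are called the other genes below.

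Both groups were gill tissue of young fruiting bodies, with 3 wild type and 3 SRR1 mutant libraries, and no treatment is given in the labels. The labels leave out the kind of mutation, whether the mutant is 1 isolate, or whether the libraries came from separate fruiting bodies. Spread between libraries may thus be partly technical. In the sample descriptions the mutant libraries share 1 code and the wild type libraries another, and what the codes stand for is not stated. A difference of line or of collection between the groups could not be told apart from genotype. The deposited identifiers were paired with no gene names here, so SRR1 itself was not identified, the tissue was not checked against marker genes, and 2 members are named by identifier and the others by position.

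Gills are the plates under the cap of a mushroom, and their surface layer, the hymenium, carries the basidia. In each basidium nuclei fuse and go through meiosis, and spores are then formed on outgrowths of the cell, with walls that thicken and darken as they mature. In Coprinopsis cinerea the basidia of a cap go through these steps nearly in time with each other. In bulk tissue, fewer cells of a type and less RNA per cell cannot be told apart.

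The libraries held 18333896 to 24373334 counted read pairs. Wild type replicate 3 stood apart from the other wild type libraries in the level of the members, and the ratio of 12 members was over 1.5 times lower without it. Named members among these are given with and without it. Column totals put the median ratio of wild type to mutant at 0.893 over the 8151 genes with at least 10 CPM in the wild type, and scaling with TMM factors (trimmed mean of M values) put it at 1.02. The ratios of the members are thus lower on the CPM scale than on the TMM scale by about this shift.

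As a group, the members made up a small and reduced share of the transcripts of the gill. They took 1.19%, 1.10% and 1.73% of the read pairs of wild type replicates 1, 2 and 3, and 0.258%, 0.257% and 0.270% of those of mutant replicates 1, 2 and 3. The wild type mean was 1.34% ± 0.34 (SD, n = 3) and the mutant mean 0.262% ± 0.008 (SD, n = 3). Wild type replicate 3 was the high library, and the mutant libraries were nearly level with each other. The 101 genes with a ratio of at least 8 went from 3.86% ± 1.69 of read pairs in the wild type to 0.148% ± 0.002 in the mutant.

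**Figure D1:**
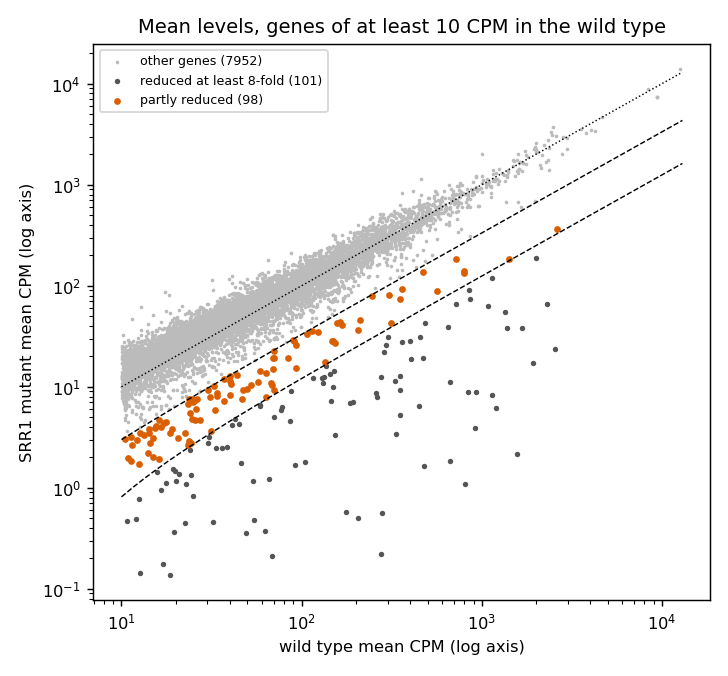
Mean CPM of each gene in the wild type (x axis) and in the SRR1 mutant (y axis), both on log axes, for the 8151 genes with at least 10 CPM in the wild type. The dashed lines mark ratios of 3 and 8 and the dotted line equal levels, and the 98 members lie in the band between the dashed lines by their choice.

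Most members were of moderate abundance. Their wild type means ran from 10.52 to 2619 CPM with a median of 38.7 CPM, close to the median of 49.5 CPM over the other genes. Of the 98, 35 were between 10 and 25 CPM, 39 between 25 and 100 CPM, 22 between 100 and 1000 CPM and 2 above that. The first 10 by abundance held 62.7% of the summed wild type level. In the mutant the means ran from 1.71 to 363 CPM with a median of 8.98 CPM, and 45 members kept a mean of at least 10 CPM.

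The retained level, which is the mutant mean as a percentage of the wild type mean, had a median of 22.9% and quartiles at 17.6% and 27.7%. More members lay near the lower bound of the ratio than near the upper one: 46 had a ratio between 3 and 4, 20 between 4 and 5, 18 between 5 and 6, 4 between 6 and 7 and 10 between 7 and 8. Its median by abundance was 23.5% in members of 10 to 25 CPM, 23.0% in those of 25 to 100 CPM and 23.1% in those of 100 to 1000 CPM, and Spearman's rho across the 98 genes was -0.0016. The rule confines the retained level to a narrow range and both quantities share the wild type mean, so these values describe the choice as well as the genes.

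**Figure D2:**
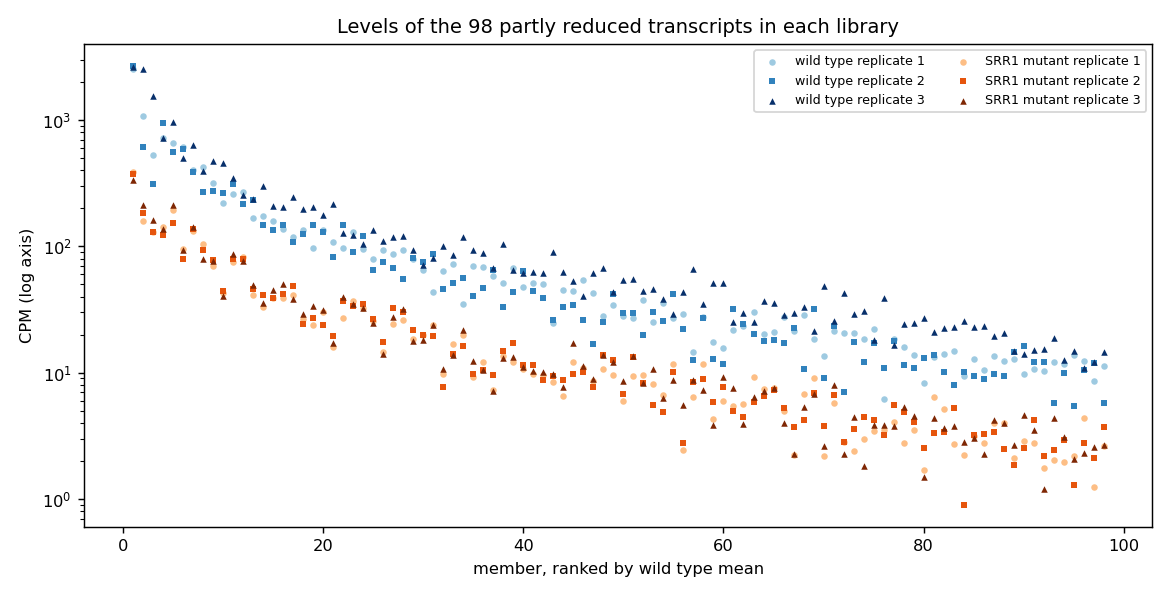
CPM of the 98 members in each of the 6 libraries (log axis), with the members ranked by wild type mean along the x axis. Blue points are wild type and orange points are mutant libraries, and the triangles of wild type replicate 3 lie highest in 77 members.

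The most abundant member was also the steadiest in the wild type. CopciAB_543926.T0, which lies on the plus strand of scaffold 11 from 873875 to 879202 and codes over 5061 bp in 6 exons, had 2549, 2675 and 2634 CPM in wild type replicates 1, 2 and 3. It had 385, 373 and 332 CPM in mutant replicates 1, 2 and 3. The wild type libraries were within 1.05 times of each other, and the lowest of them was 6.62 times the highest mutant library, the widest gap among the 98 members. The mean went from 2619 ± 64 CPM (SD, n = 3) to 363 ± 28 CPM (SD, n = 3), a retained level of 13.9% (edgeR log2 fold change -3.05 ± 0.20 SE). Against each wild type library taken alone the retained level was 14.2%, 13.6% and 13.8%.

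The member next in abundance was uneven. CopciAB_508093.T0, on scaffold 4 from 3177776 to 3178545 (plus strand, 480 coding bp in 6 exons), had 1067, 606 and 2551 CPM in wild type replicates 1, 2 and 3 and 160.0, 182 and 213 CPM in mutant replicates 1, 2 and 3. Wild type replicate 3 was 4.21 times replicate 2, while the groups did not overlap. The retained level was 13.2% of the wild type mean (edgeR log2 fold change -3.16 ± 0.48 SE), but 17.4%, 30.5% and 7.26% of wild type replicates 1, 2 and 3 taken alone. Without wild type replicate 3 the log2 fold change was -2.34, and without wild type replicate 2 it was -3.56. Per kb of coding length it had the highest level of all members in both groups, with 2933 CPM per kb in the wild type and 386 CPM per kb in the mutant.

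The next 6 by abundance held both patterns. The gene on scaffold 4 from 142419 to 145638, with 15 coding exons, had 527, 314 and 1545 CPM in wild type replicates 1, 2 and 3 and 130.1, 129 and 163 CPM in the mutant replicates. Like CopciAB_508093.T0 it was high in wild type replicate 3, and its retained level was 26.7%, 44.8% and 9.10% of the 3 wild type libraries in turn. Its ratio was 5.64, and 2.99 without wild type replicate 3. A gene with 4584 coding bp in 3 exons, on scaffold 8 from 1775390 to 1780125, had 716, 951 and 716 CPM in the wild type and 141, 123 and 137 CPM in the mutant. Here replicate 2 was the high wild type library and replicates 1 and 3 were level.

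On scaffold 4, the gene from 2801528 to 2804459 had 606, 587 and 499 CPM in the wild type and 95.02, 79.6 and 93.3 CPM in the mutant, a retained level of 15.8%. It was 1 of 3 members in which wild type replicate 3 was the lowest library. On scaffold 1, the gene from 2886600 to 2888321 had 656, 554 and 962 CPM in the wild type and 194, 152 and 211 CPM in the mutant, a retained level of 25.6%. Its mutant level of 124 CPM per kb of coding length was the next highest after CopciAB_508093.T0.

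On scaffold 12, the gene from 260832 to 262739 retained more, with 402, 389 and 628 CPM in the wild type and 131, 138 and 142 CPM in the mutant (28.9%). On scaffold 6, the gene from 1557361 to 1559468 had 422, 271 and 393 CPM in the wild type and 104, 94.0 and 79.1 CPM in the mutant (25.6%). Of these 8 members, then, 4 had wild type replicate 3 as the highest library, 2 had replicate 1 and 2 had replicate 2. For the members just named by position the edgeR log2 fold changes ran from -2.85 ± 0.18 (SE) for the gene starting at 2801528 to -2.00 ± 0.24 (SE) for the gene on scaffold 12.

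The members as a whole were uneven among the wild type libraries in 1 direction. The top wild type library was replicate 3 in 77 of 98 members (78.6%), in 90 of the 101 genes with a ratio of at least 8 (89.1%) and in 26.2% of the other genes. Replicate 2 was the lowest in 61 members (62.2%), replicate 1 in 34 (34.7%) and replicate 3 in 3 (3.06%). The shares among the other genes were 31.1%, 20.9% and 48.0% in the same order. The order replicate 3, then 1, then 2 was the commonest, with 53 members (54.1%, against 17.7% of the other genes), and replicate 3, then 2, then 1 followed with 24. The median member stood at 0.897, 0.777 and 1.31 times its wild type mean in replicates 1, 2 and 3, where the median of the other genes was 1.01, 1.04 and 0.929. The rule used these same libraries, and 32 of the 98 members failed it on the ratio or the level once replicate 3 was left out. In a comparison added after the data were seen, among the 82 genes chosen by the rule without wild type replicate 3, it stood above both other wild type libraries in 57 (69.5%), against 26.5% of all genes with at least 10 CPM in replicates 1 and 2. With TMM scaling replicate 3 was the highest in 85.7% of members and 34.6% of the other genes.

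**Figure D3:**
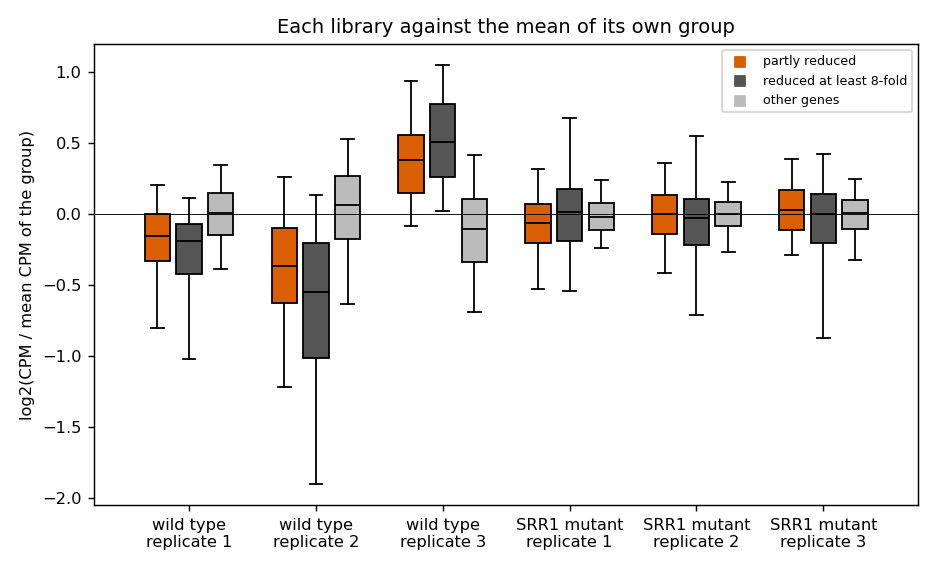
Log2 of each library's CPM over the mean CPM of its own group, for the 98 members, the 101 genes with a ratio of at least 8 and the 7952 other genes. Boxes span the quartiles with the median as a line, whiskers the 5th to 95th percentile, and values of 0 CPM are left out; in wild type replicate 3 the median member lies above the line and the median of the other genes below it.

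The members differed widely in how even they were. The coefficient of variation (CV, the SD divided by the mean) among wild type libraries ran from 0.0246 to 0.971 with a median of 0.296, compared with a median of 0.207 for the other genes and 0.390 for the genes with a ratio of at least 8. In 29 members (29.6%) the highest wild type library was under 1.5 times the lowest, a condition met by 51.0% of the other genes and 24.8% of the genes with a ratio of at least 8. In 36 members (36.7%) replicate 3 was at least 1.5 times both other libraries, which held for 3.23% of the other genes and 54.5% of the genes with a ratio of at least 8. The remaining 33 members met neither condition. These conditions were set after the values were seen.

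The median retained level was 21.6% in the even members and 21.4% in those led by replicate 3, within a range that the rule sets for both. The median coding length was 1683 bp in the even members and 979.5 bp in those led by replicate 3. Coding length also moved with the libraries outside the members. Spearman's rho across genes between coding length and the level in wild type replicate 3 over the mean of replicates 1 and 2 was -0.373 in the 98 members and -0.411 in the 7952 other genes. The part of length in the high values of replicate 3 was not tested.

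**Figure D4:**
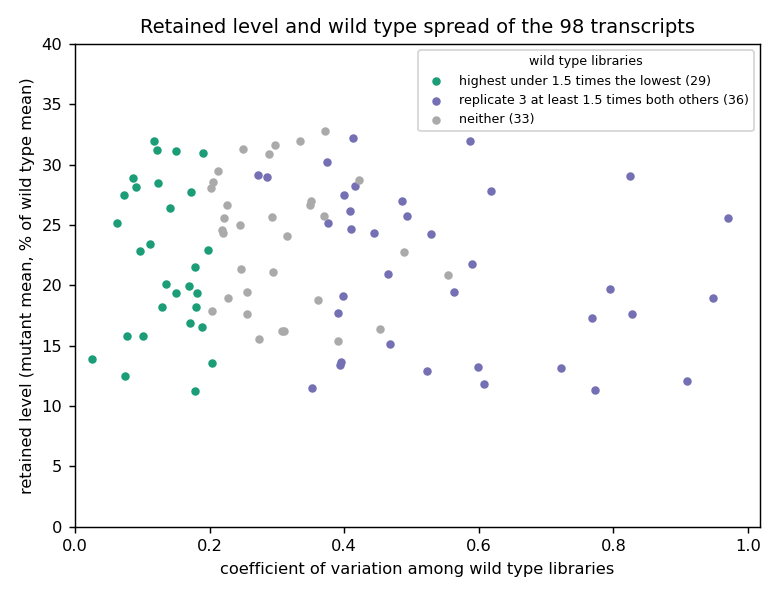
Retained level of each of the 98 members (mutant mean as a percentage of the wild type mean, y axis) against the coefficient of variation among its wild type libraries (x axis). Green points are the 29 even members, purple points the 36 led by replicate 3 and grey points the other 33, and the rule bounds the retained level from both sides.

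Besides CopciAB_543926.T0, the 3 steadiest members in the wild type were of low to moderate level. On scaffold 10, the gene from 753237 to 754464 had 18.6, 17.9 and 16.5 CPM in wild type replicates 1, 2 and 3 and 4.04, 5.55 and 3.78 CPM in the mutant replicates, a retained level of 25.2%. That on scaffold 3 from 766963 to 768787 had 64.7, 74.7 and 71.1 CPM in the wild type and 19.96, 19.8 and 18.1 CPM in the mutant (27.5%). That on scaffold 9 from 555916 to 557713 had 58.6, 64.4 and 67.9 CPM in the wild type and 7.25, 9.54 and 7.10 CPM in the mutant (12.5%). In none of these 3 did the highest library of either group reach 1.5 times the lowest, and the groups lay far apart.

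At the other end, the 4 most variable members were all carried by wild type replicate 3. Apart from the 15-exon gene on scaffold 4 described above, they were the gene on scaffold 7 from 2049616 to 2050365, with 14.6, 12.6 and 65.5 CPM in the wild type and 6.44, 8.49 and 8.75 CPM in the mutant, and 2 others. That on scaffold 4 from 226227 to 228817 had 6.15, 10.9 and 38.8 CPM in the wild type and 3.49, 3.20 and 3.88 CPM in the mutant. That on scaffold 10 from 460279 to 460868 had 13.6, 9.10 and 48.5 CPM in the wild type and 2.18, 3.80 and 2.64 CPM in the mutant. Without wild type replicate 3 the ratio of the gene on scaffold 7 was 1.68 in place of 3.74, that of the gene on scaffold 4 was 2.24 in place of 4.75 and that of the gene on scaffold 10 was 3.51 in place of 7.18. Their edgeR log2 fold changes went from -2.21, -2.63 and -3.28 to -0.94, -1.42 and -2.14. The smallest gap between the groups, 1.29 times, was that of a gene of 201 coding bp on scaffold 4 from 2406405 to 2406679, with 15.7, 11.8 and 50.9 CPM in the wild type and 5.95, 7.64 and 9.17 CPM in the mutant. Its ratio of 3.29 was 1.76 without wild type replicate 3.

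Against single wild type libraries the band of partial reduction was less sharp. With wild type replicate 1 alone, 76 members had a ratio to the mutant mean between 3 and 8 and 22 were under 3. With replicate 2 alone, 54 were in the band and 44 under it, and with replicate 3 alone 78 were in the band, 2 under it and 18 at 8 or more. The median ratios were 3.66, 3.34 and 5.44. In 33 members the ratio was in the band against each wild type library, and in 45 it was at least 3 against each.

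When the rule was applied without wild type replicate 3, 66 of the 98 members were chosen again, 26 had a ratio under 3, 6 had a mean under 10 CPM and the median retained level of the 98 was 27.8%. When wild type replicate 1 or 2 was left out instead, 87 or 88 members were chosen again. Without mutant replicates 1, 2 and 3 in turn, 93, 91 and 91 were chosen again.

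The mutant libraries were closer to each other than the wild type libraries in most members. The CV among mutant libraries had a median of 0.146 and was below that of the wild type in 76 of 98 members (77.6%), a share near the 79.9% of the other genes. The median mutant CV was 0.0988 in the other genes and 0.199 in the genes with a ratio of at least 8. The median member stood at 0.960, 1.003 and 1.02 times its mutant mean in mutant replicates 1, 2 and 3, so no mutant library was high for the members as a whole. Mutant replicate 3 was the highest in 43 members (43.9%), replicate 2 in 33 (33.7%) and replicate 1 in 22 (22.4%). The shares among the other genes were 37.7%, 32.8% and 29.5% in the same order.

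Residual levels in the mutant rested on 18 to 7458 read pairs per member and library, with a median of 171. Counting error alone gave a median CV of 0.0762 at these depths, and 86 of 98 members had a larger CV than their own counting error. In the other genes too, the median CV among mutant libraries, 0.0988, was above the median counting error of 0.0304. Counting error assumes independent molecules, which duplicate reads from library amplification would break. The highest mutant library was under 1.5 times the lowest in 70 members (71.4%), against 90.5% of the other genes, whose mutant levels were higher. The lowest residual level was that of a gene on scaffold 11 from 702350 to 704068, with 10.3, 12.1 and 15.4 CPM in the wild type and 1.75, 2.20 and 1.19 CPM in the mutant. The least even in the mutant was a gene on scaffold 6 from 143844 to 145904, with 9.48, 10.2 and 25.4 CPM in the wild type and 2.24, 0.899 and 2.85 CPM in the mutant, and a ratio of 6.22 that was 4.15 without wild type replicate 3. The evenest was a gene on scaffold 6 from 2574547 to 2576192, with 20.9, 18.1 and 35.3 CPM in the wild type and 7.53, 7.34 and 7.61 CPM in the mutant.

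The ratio was also read in libraries that were left out when genes were chosen. Genes were chosen by the same rule from 2 wild type and 2 mutant libraries. The ratio was then read in the wild type and the mutant library left out, in all 9 combinations. The combinations share libraries and are not separate readings, and the rule itself was set with earlier results of these data known. The rule chose 87 to 113 genes, with median ratios of 4.02 to 4.37 in the choosing libraries. With wild type replicate 1 left out, the median ratios in the libraries left out were 3.65, 3.51 and 3.37 for mutant replicates 1, 2 and 3. With wild type replicate 2 left out they were 2.91, 2.87 and 2.82, and with wild type replicate 3 left out 5.84, 6.23 and 5.90. The left-out ratio thus went with the wild type library rather than with the mutant library.

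Over all genes with at least 10 CPM in the choosing wild type libraries, the median ratio in the libraries left out was 0.821 to 0.935. Of the chosen genes, 40% to 64.6% had a left-out ratio between 3 and 8, against 1.17% to 1.80% of all genes of that level. A left-out ratio of 1 or less occurred in 0 to 2 chosen genes per combination. Under 3 were 36 to 44 chosen genes with wild type replicate 1 left out, 58 to 59 with replicate 2 and 5 to 9 with replicate 3. With replicate 3 left out, 27 to 32 had a ratio of 8 or more.

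**Figure D5:**
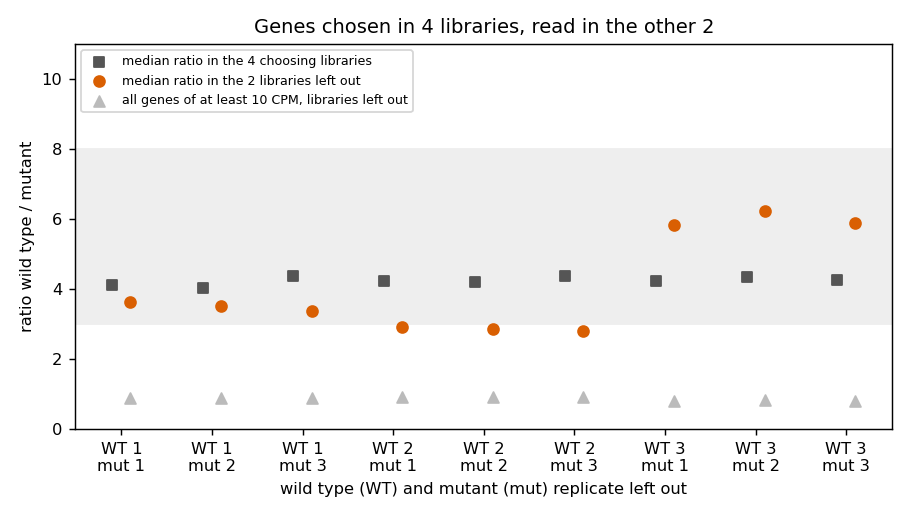
Median ratio of wild type to mutant for genes chosen by the rule in 4 libraries, in those libraries (squares) and in the 2 libraries left out (circles), for the 9 combinations along the x axis. Triangles give the median over all genes of at least 10 CPM, the grey band spans ratios of 3 to 8, and the circles lie at 2.82 to 3.65 except where wild type replicate 3 was the library left out.

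The bounds of the band cut through a continuous range. Just inside the lower bound lay the gene on scaffold 9 from 920032 to 920738, with 89.3 ± 33.1 CPM (SD, n = 3) in the wild type, 29.3 ± 2.9 CPM in the mutant and a ratio of 3.01. The gene on scaffold 7 from 754680 to 756337, with 37.3 ± 15.4 and 12.0 ± 2.3 CPM, had a ratio of 3.02, and that on scaffold 2 from 704909 to 705316, with 23.8 ± 7.1 and 7.53 ± 1.28 CPM, had a ratio of 3.03. Just outside, at ratios of 2.99, 2.97 and 2.94, lay genes on scaffold 11 from 448586 to 449891, on scaffold 5 from 108117 to 108459 and on scaffold 11 from 1395387 to 1397435. Their wild type means were 42.1 ± 13.6, 29.8 ± 9.0 and 26.9 ± 9.999 CPM (SD, n = 3).

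Just inside the upper bound, the gene on scaffold 8 from 1930033 to 1930761 went from 31.6 ± 11.1 to 3.62 ± 1.72 CPM (ratio 7.79). The 21-exon gene on scaffold 5 from 1821818 to 1824714 went from 24.4 ± 4.3 to 2.75 ± 0.86 CPM (ratio 7.66), and the gene on scaffold 12 from 1377134 to 1377549 from 23.5 ± 18.1 to 2.65 ± 0.33 CPM (ratio 7.60). The last of these had 20.6, 6.997 and 42.9 CPM in wild type replicates 1, 2 and 3, and without replicate 3 its ratio was 4.53 and its edgeR log2 fold change -2.54 in place of -3.37. Outside it, at ratios of 8.04, 8.22 and 8.38, lay genes on scaffold 9 from 1184948 to 1186428, on scaffold 1 from 1513341 to 1515307 and on scaffold 6 from 2100403 to 2101669. The criterion that the groups must not overlap removed 0 genes that met the other criteria, and 68 genes under 10 CPM in the wild type met the ratio and that criterion.

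In the fit across the whole table, all 98 members passed the expression filter and were called lower in the mutant, where 6.99% of the 11683 tested genes were called lower (edgeR quasi-likelihood test, adjusted p under 0.05). DESeq2 called all 98 as well, beside 8.86% of the genes it tested. The same contrast chose the members, so this count supports nothing about them. Their log2 fold changes ran from -3.37 to -1.82 with a median of -2.32, beside a median of 0.0140 over all tested genes. The members were 12.0% of the 817 genes called lower. Of the genes with at least 10 CPM in the wild type, 10.4% had every wild type library above every mutant library, and 1.20% were members.

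The rule did not use gene structure, and its values are given here without a test. The median coding length of the members was 1371 bp, with quartiles at 856.5 and 1786.5 bp, against 1368 bp in the other genes, with quartiles at 843 and 2022 bp. The median number of coding exons was 5 in both, and the upper quartile 7 in the members and 9 in the other genes. Of the members, 6 had a single coding exon (6.12%, against 5.66%), 4 had at most 300 coding bp (4.08%, against 3.06%) and 49 lay on the plus strand (50%, against 50.5%). Among the genes with a ratio of at least 8 the medians were 1161 coding bp and 4 coding exons. The shortest member, with 141 coding bp on scaffold 11 from 1432425 to 1432693, had 12.4, 10.4 and 10.9 CPM in the wild type and 4.36, 2.80 and 2.33 CPM in the mutant. The member with the most coding exons, 24, lay on scaffold 7 from 1093566 to 1098760 and had 271, 215 and 256 CPM in the wild type and 81.7, 79.5 and 75.8 CPM in the mutant.

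The counting gave no strand option and counted multi-mapping reads. The coding span of 0 members overlapped another gene model, so reads of an overlapping coding sequence on the other strand do not enter their values. Untranslated ends were not covered by this check. The member on scaffold 6 from 2134909 to 2136408 lay 21 bp from a coding span on the other strand, whose mutant mean was 4.49 CPM. Some other members had stronger neighbours of this kind, given here by mutant means. On scaffold 6, the member from 2574547 (7.50 CPM) lay 92 bp from a gene of 211 CPM. That from 157293 (5.47 CPM) lay 89 bp from one of 87.1 CPM. On scaffold 8, that from 1120157 (8.12 CPM) lay 99 bp from one of 39.3 CPM. Whether reads from untranslated ends of these neighbours entered the members' values was not tested. For 1 member, of 576 coding bp on scaffold 4 from 389987 to 390618, another model on the same scaffold from 433357 to 433988 has the same coding exon lengths, and the values of both are uncertain. It had 11.7, 9.995 and 12.5 CPM in the wild type and 1.96, 2.95 and 3.11 CPM in the mutant, and the other model had means of 0.818 and 0.153 CPM. This comparison covered only models with more than 1 coding exon and equal exon lengths. It could not flag the 6 members with a single coding exon, or related genes of another structure whose reads map to several places.

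The members were scattered over 14 scaffolds. Scaffold 4 held the most, 18 of its 914 genes with at least 10 CPM in the wild type (1.97%), followed by 10 each on scaffolds 1 and 5. The highest shares among scaffolds with at least 100 such genes were 2.26% on scaffold 8 (9 of 399) and 1.97% on scaffold 4, and the lowest was 0.622% on scaffold 2 (6 of 965). Of the 195 gene models directly beside a member, 109 were among the other genes, 80 were under 10 CPM in the wild type, 4 were members and 2 had a ratio of at least 8. The 111 of them that had at least 10 CPM in the wild type and were no members had a median ratio of 0.859 with quartiles at 0.686 and 1.08. Over all 8053 such genes of the table the median was 0.889, with quartiles at 0.737 and 1.08. A ratio of at least 1.5 occurred in 9.01% of these neighbours and in 6.67% of the 8053 genes, and the difference was not tested.

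Members were direct neighbours of each other in 2 places, both on scaffold 4. The gene from 2034880 to 2035352, with 14.1, 10.05 and 22.5 CPM in the wild type and 5.13, 3.40 and 3.68 CPM in the mutant, ended 373 bp before the gene from 2035726 to 2036230 on the same strand. The latter had 221, 264 and 454 CPM in the wild type and 42.9, 44.3 and 40.7 CPM in the mutant, and was among the 3 members with the highest mutant level per kb, at 123.5 CPM per kb. Their retained levels differed, at 26.2% and 13.6%, while wild type replicate 3 was the highest library of both.

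The other pair lay on opposite strands, 1067 bp apart. The gene from 624009 to 625932 had 15.96, 11.6 and 24.3 CPM in the wild type and 2.78, 4.90 and 5.39 CPM in the mutant. The gene from 627000 to 627368 had 20.1, 17.9 and 36.9 CPM in the wild type and 7.42, 6.60 and 7.15 CPM in the mutant. They retained 25.2% and 28.3%, and replicate 3 was again the highest wild type library of both.

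In 2 further places a member stood directly beside a gene with a ratio of at least 8. On scaffold 12 the member from 546662 to 548278, with a ratio of 5.84, lay 330 bp from a gene on the same strand, from 548609 to 550522, that went from 350.9 ± 121.6 to 5.24 ± 0.51 CPM (SD, n = 3). On scaffold 8 the member from 1120157 to 1121181, with a ratio of 3.97, lay 891 bp from a gene on the other strand, from 1122073 to 1122913, that went from 185 ± 139 to 6.85 ± 1.92 CPM. The ratios of these neighbours were 61.2 and 25.3 in turn. That they were above those of the members follows from how the places were picked.

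Looser groupings, by a distance of at most 10 kb set after the values were seen, held reduced genes and genes of other ratios side by side. Such groupings are defined by reduced genes lying close together, so the share of reduced models in them is high by choice. Over the whole table, 98 of 13615 gene models were members and 101 had a ratio of at least 8. Of the members, 8 lay within 10 kb of another member and 6 within 10 kb of a gene with a ratio of at least 8. No such share is given for the other genes, so these counts do not show that members lie unusually close to reduced genes. On scaffold 6 from 143844 to 163835, 5 of 12 gene models were reduced. The 2 members there, from 143844 to 145904 and from 157293 to 157532, went from 15.0 ± 9.0 to 1.99 ± 0.997 CPM and from 24.1 ± 11.8 to 5.47 ± 1.29 CPM (SD, n = 3). The strongest of the other 3, from 160501 to 162267, went from 448 ± 126 to 6.41 ± 1.42 CPM. Directly before it lay a gene from 159594 to 160155 with a wild type mean of 68.1 ± 24.4 CPM and a mutant mean of 63.2 ± 3.9 CPM, and the gene from 148298 to 150240 was at a higher mean in the mutant (10.9 ± 4.4 and 22.9 ± 1.3 CPM).

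On scaffold 11 from 1666660 to 1687514, 3 of 10 models were reduced. The member, from 1674508 to 1676346, went from 113.9 ± 21.6 to 35.3 ± 1.4 CPM. It lay between genes that went from 193 ± 38 to 7.11 ± 0.82 CPM and from 335 ± 37 to 3.38 ± 0.98 CPM. Of the models between them, that from 1668200 to 1668925 had means of 15.3 ± 4.7 and 7.87 ± 0.72 CPM in the wild type and the mutant (51.5% retained). Those from 1669023 and from 1671011 retained 74.5% and 84.9%, and that from 1683616 to 1685624 had means of 679 ± 212 and 685 ± 68 CPM. The model from 1680192 was higher in the mutant, at 125% of its wild type mean. So were those from 1672655 and from 1677132, at 194% and 143%, both under 10 CPM in the wild type.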

How the data were processed

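The authors deposited 1 table of raw counts of read pairs per gene model for 6 libraries of gill RNA, made with featureCounts 2.0.1 over coding exons, per the file headers. The recorded command required both ends to be mapped and fragments of at least 40 bp, dropped chimeric pairs, kept reads that map to several places and set no strand option. The submitters' processing notes name STAR 2.6.1 as the aligner. The sources used here name no genome build, and positions follow the scaffold names of the table. The command lists an additional alignment file of wild type replicate 3, which was not used here. Of 13615 identifiers, 0 matched the 13657 genes of the reference table (assembly CC3), so no gene lists were run and no sequences are printed.

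Columns were assigned by the sample descriptions and groups by the titles. CPM were counts over column totals; 1 CPM stood for 18.3 to 24.4 read pairs. The whole table was fitted with edgeR 4.0.16 (quasi-likelihood, TMM factors, default filter, genotype only, Benjamini-Hochberg adjustment, threshold 0.05) in R 4.3.3, and the step was tested on simulated data. SE is the absolute log2 fold change over the square root of F. Summaries used Python 3.11.15. The members, rule and groupings were chosen with earlier results of these data known. The 2 most abundant members are named by identifier. By position are named the 3rd to 8th, the 4 steadiest and 4 most variable in the wild type, the 3 highest per kb in the mutant, the 3 nearest each bound, neighbouring members, and single extremes picked after the values were seen. The alternatives were TMM factors and DESeq2 1.42.0 size factors, other minimums and pseudocounts, DESeq2, library sizes only, no filter, the replicate block and leaving out each library.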

Additional observations from a re-analysis of the deposited data

How the results depend on the processing

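The number of genes chosen by the rule was 98, and 119 with TMM factors, 126 with DESeq2 size factors, 98 with a pseudocount of 0.1, 97 with one of 2, 131 with a minimum of 5 CPM, 74 with one of 20 CPM and 82 to 109 with 1 library left out. Of the 98 members, 88 met the rule with TMM factors, 87 with DESeq2 size factors and 75 with a pseudocount of 2. The median retained level of the 98 was 22.9%, and 20.01% with TMM factors, 19.6% with DESeq2 size factors, 24.0% with medians in place of means and 20.6% to 27.8% with 1 library left out. All 98 were called lower with DESeq2, with the other scalings, without the filter, with the replicate block and without each wild type library, and 93 to 95 without each mutant library; over these edgeR settings 4.07% to 9.80% of all tested genes were called lower. By the rule, every wild type library of a member lay above every mutant library, which largely set the direction of its refits in advance. The 24 members named by the rule kept their direction in all 264 refits. In 6 of these, the gene on scaffold 7 from 2049616 (adjusted p 0.115 to 0.126) and that on scaffold 4 from 226227 (adjusted p 0.0709 to 0.0840) missed the threshold without each mutant library (edgeR). The labels do not say whether same-numbered libraries were handled as pairs. Deviations of same-numbered libraries correlated at 0.0785, -0.0530 and -0.0368, and those of differently numbered ones at -0.0828 to 0.117. Setting aside the member that shares its exon lengths with another model, chosen after seeing the data, left 97 members with a median retained level of 22.9%. Depth limits members of low mutant level, where 18 read pairs were the fewest in a library.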
